A study of Mus musculus with 6 samples.

Results

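Short blocks of CpG cytosines in the mouse testis genome, at the genes C7, Zfp180, Dpp7 and Akap7, were methylated to very different levels in single mice. The positions described are those with 10 or more reads in all 6 libraries within 10 kb of 4 windows (GRCm38): chr15:4986750-4988750 at C7, chr7:24080877-24082877 at Zfp180, chr2:25355389-25357389 at Dpp7 and chr10:25298217-25300217 at Akap7. This gave 162 positions of 952515 with that depth in the whole data set: 12 at C7, 12 at Zfp180, 92 at Dpp7 and 46 at Akap7. The windows were chosen by the measured methylation levels themselves, for a wide difference between mice, so the spread of those levels is described here without a test. Each library was made from the remaining or matching right testis of a grown KM mouse, an outbred stock. In 3 mice the left testis had been taken out before puberty (hemicastrated), and 3 had sham surgery at the same time. Both groups thus shared strain, tissue and an operation, and each mouse gave 1 library. DNA was cut with MspI, which recognises CCGG, and short bisulfite-converted fragments were sequenced (reduced representation bisulfite sequencing), so that measured CpGs come in fragments and not evenly along the genome.

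Most cytosines of a CpG are either methylated in nearly all cells of a tissue or in nearly none, and the marks are erased and rewritten in the germ line and in the early embryo. An epiallele is a stretch of DNA whose methylation differs between individuals. In inbred mice, the known cases often lie at inserted retrotransposons whose mark is set early and at random, while in outbred animals a linked DNA variant can set the mark as well. A locus that is marked according to a DNA allele gives levels in steps, for 0, 1 or 2 methylated alleles. A level is an average over all cells of the testis, so that a mark in a share of the cells and a change of the cell mixture cannot be told apart.

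The 4 genes have unrelated roles. C7 encodes a plasma protein of the terminal complement cascade that joins the membrane attack complex. Zfp180 encodes a zinc finger protein of a large class of DNA-binding repressors. Dpp7 encodes a vesicular serine peptidase that removes dipeptides ending in proline or alanine. Akap7 encodes an anchoring protein that binds the regulatory subunit of protein kinase A.

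The Dpp7 block is the one for which the reference sequence could be read, because it lies in the listed promoter of the gene. It is shown because its CpGs can be matched one by one to the measured positions, with the 6 measured CpGs in capitals, read on the plus strand from one CCGG site to the next (RefSeq, GRCm38.p6, chr2:25356341-25356480).

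Dpp7 MspI fragment: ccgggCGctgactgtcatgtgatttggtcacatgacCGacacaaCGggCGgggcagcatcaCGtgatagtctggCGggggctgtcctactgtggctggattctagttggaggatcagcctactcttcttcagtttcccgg

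All 6 measured CpGs fell on a CG of this sequence, and the fragment of 140 bp, both CCGG sites included, holds 8 CpGs in all. The 300 bp promoter of Dpp7 has 9 CpGs, more than 54.2% of the 32817 listed promoters, whose median is 7. It holds the motif CCGG, which reads the same on both strands, at 2 places; 32.6% of the listed promoters hold it at least 2 times and 52.8% at least once.

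The variable block of each locus was taken as the run of positions in which the highest and the lowest library differed by 40 points or more, with at most 2 positions in a row under that limit. At C7 the block ran over 94 bp (chr15:4987815-4987908) and all 12 positions were variable. At Zfp180 it ran over 62 bp (chr7:24082143-24082204) with 11 of 12 positions variable, at Dpp7 over 71 bp (chr2:25356346-25356416) with 12 of 12, and at Akap7 over 221 bp (chr10:25299054-25299274) with 15 of 19. Over all 952515 positions 13162 (1.38%) had a range of 40 points or more, a share that these loci were chosen to exceed. None of the 107 positions measured outside the blocks reached it. The values nearest to the limit were 40.7 points at position 24082170 inside it and 37.9 points at position 24082186 outside it, both at Zfp180. On the limit of 10 reads, position 25353701 at Dpp7 had 11 reads in its thinnest library, and its neighbour 25353702 had 6 and was left out.

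Each block has its own place relative to its gene. The C7 gene (chromosome 15, 4987750 to 5063773) is on the minus strand, with the nearest listed start at 5063773, so the block lies 65 to 158 bp inside the far, 3′ end of the gene and 75865 bp or more from that start. The Zfp180 gene (chromosome 7, 24081877 to 24107709, plus strand) begins just before its block, which lies 246 to 307 bp downstream of the listed start. The Dpp7 gene (chromosome 2, 25352290 to 25356389, minus strand) has its 5′ boundary inside its block, which lies 14 to 84 bp upstream of the listed start. The long noncoding gene Gm46732 starts on the other strand 55 bp beyond that block. The Akap7 gene (chromosome 10, 25169090 to 25299217, minus strand) also has its 5′ boundary inside its block, which lies 1975 to 2195 bp upstream of the nearest listed start. The block lies 445 to 665 bp downstream of the start of Gm40617, a long noncoding gene of the opposite strand. The pseudogene Gm36694 and the mannosidase gene Man1b1, which also reach into these regions, lie outside the blocks. Exons, introns and untranslated regions were not analysed here, since the gene table gives boundaries only.

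**Figure D1:**
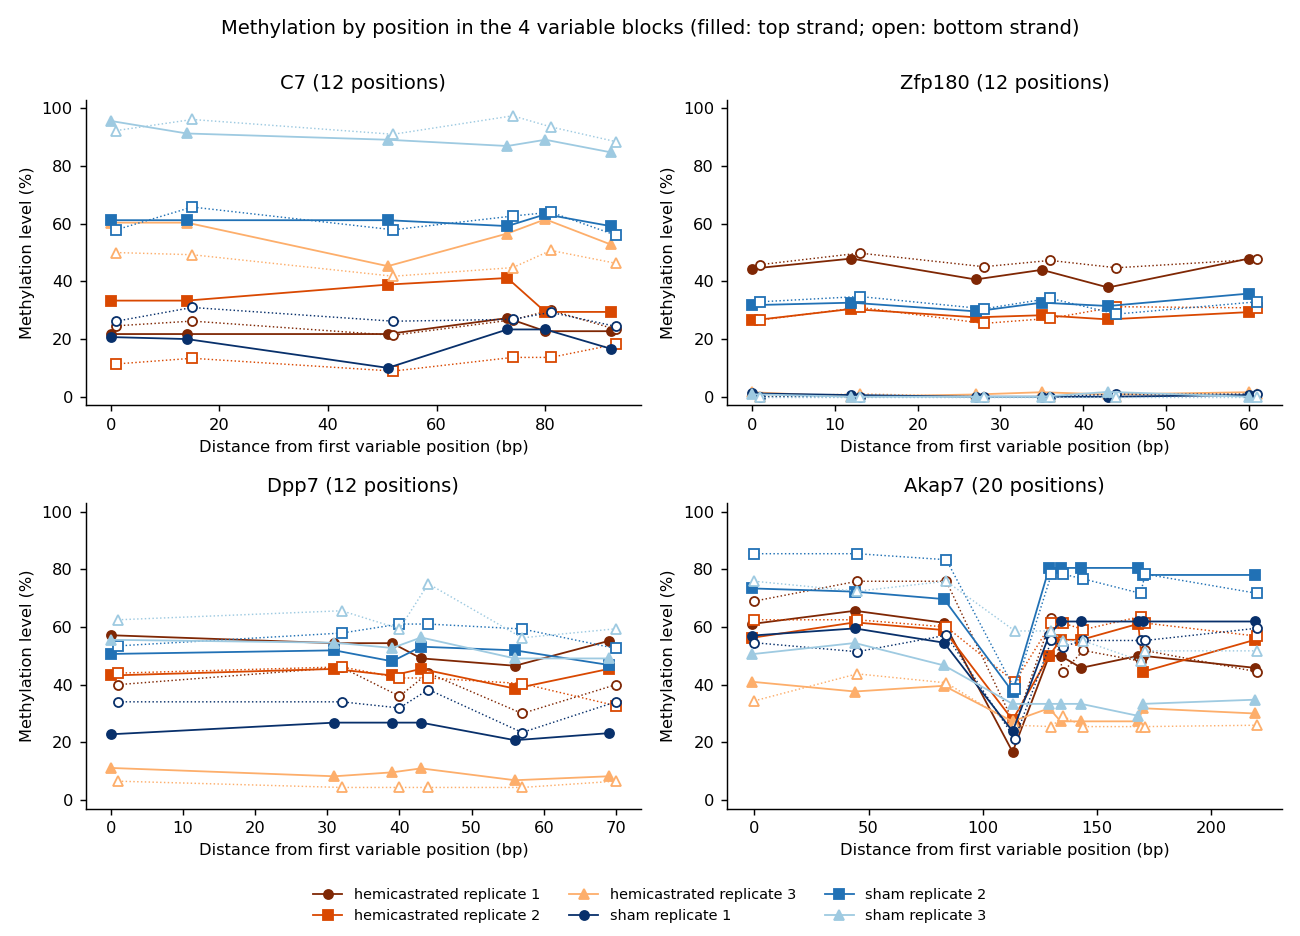
Methylation level in percent at each position of the 4 blocks, against distance in bp from the first variable position. Each colour and symbol is 1 mouse, the Akap7 panel adds the position before its block, filled symbols with solid lines are the top strand and open symbols with dotted lines the bottom strand; lines are nearly level at Zfp180, between 37.9% and 49.8% in hemicastrated replicate 1, but dip at Akap7, where the same mouse runs from 16.7% to 75.9%.

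At C7 the mean level of the block was 24.2%, 23.7% and 51.7% in hemicastrated replicates 1 to 3, against 23.2%, 60.8% and 91.3% in sham replicates 1 to 3. In means over both strands the low mice (hemicastrated replicates 1 and 2, sham replicate 1) lay within about 1 point of each other. By strand they were less close, at 23.0%, 34.3% and 19.0% on the top and 25.4%, 13.2% and 27.3% on the bottom. Hemicastrated replicate 3 and sham replicate 2 lay above 50%, and sham replicate 3 was the highest. The groups overlapped. The block rested on 84, 63 and 120 reads in hemicastrated mice and on 72, 125 and 124 reads in sham mice, summed over both strands. The Wilson 95% interval from these reads ran from 42.8% to 60.4% in hemicastrated replicate 3 and from 84.8% to 94.97% in sham replicate 3. PCR duplicates were not marked by molecular tags, so all such intervals describe counting error alone. The range over the 6 mice was 68.2 points, and it was 37.6 points without sham replicate 3.

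At Zfp180 the block level was 45.3%, 28.4% and 0.689% in hemicastrated mice and 0.340%, 32.3% and 0.210% in sham mice. The low values, in hemicastrated replicate 3 and sham replicates 1 and 3, compare with 0.478% to 0.617% methylated calls on the mitochondrial genome, a measure of unconverted cytosine, and the groups overlapped. This was the most deeply read of the blocks, with 634, 449 and 227 reads in hemicastrated and 286, 397 and 208 reads in sham mice. The intervals of hemicastrated replicate 1 (41.4% to 49.2%) and of hemicastrated replicate 2 (24.5% to 32.9%) did not touch, whereas that of sham replicate 2 (27.8% to 37.0%) overlapped that of hemicastrated replicate 2.

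At Dpp7 the block level was 46.1%, 42.4% and 7.12% in hemicastrated mice and 28.6%, 54.0% and 58.0% in sham mice, from 87 to 138 reads a library. Hemicastrated replicate 3 was the lowest, sham replicate 1 lay between it and the other mice, and the groups overlapped. Without hemicastrated replicate 3 the range fell to 29.4 points, against 50.8 points over all 6 mice.

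At Akap7 the block level was 51.9%, 55.8% and 30.6% in hemicastrated mice and 53.8%, 73.9% and 49.2% in sham mice, from 172 to 304 reads. Hemicastrated replicate 3 was the lowest and sham replicate 2 the highest, with the other 4 mice from 49.2% to 55.8%, and the groups overlapped. The range was 43.3 points over all mice, 24.7 without hemicastrated replicate 3 and 25.2 without sham replicate 2. The order of the mice differed between loci: hemicastrated replicate 3 was the lowest at Dpp7 and Akap7, and sham replicate 3 was the highest at C7 and Dpp7 and the lowest at Zfp180.

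**Figure D2:**
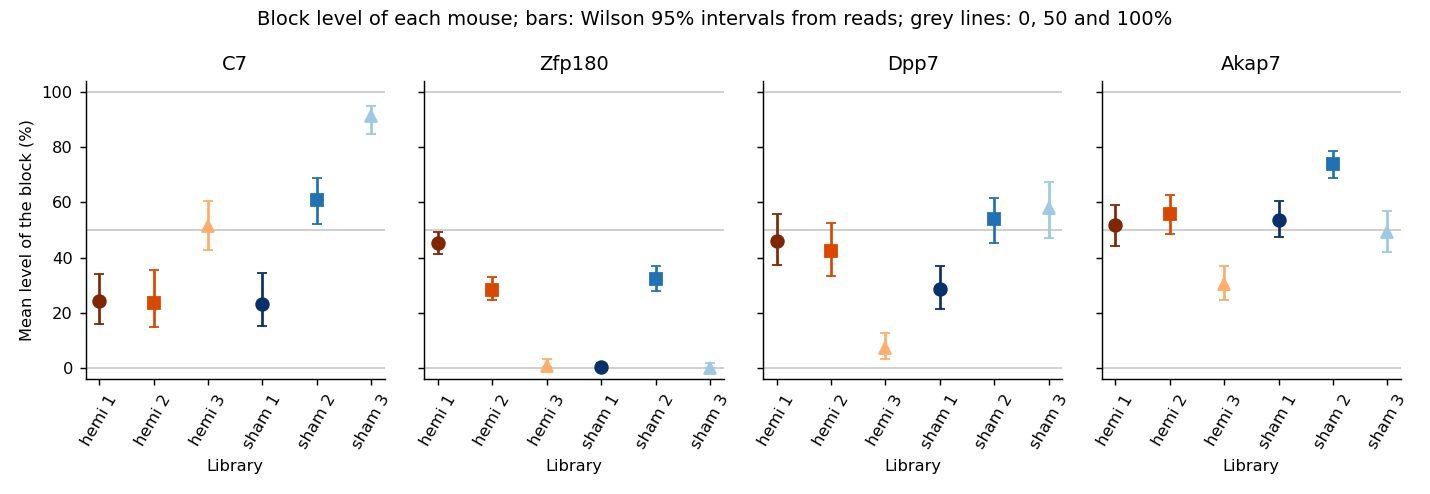
Mean methylation level in percent of each block in each library, with Wilson 95% intervals from the reads of both strands; grey lines mark 0, 50 and 100%. Hemicastrated mice are on the left of each panel; at Zfp180 the 6 mice fall at 45.3%, at 28.4% and 32.3%, and below 1%.

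Levels were compared with allele steps as a description. Of the 24 block levels (6 mice at 4 loci), 15 lay within 10 points of 0, 50 or 100%, a band that covers 40% of the scale, and the interval of 10 held one of these steps. For the intervals, the level times the reads was rounded to whole methylated reads, and 0% is held only where this gives 0. At Zfp180 it did so in sham replicate 3 (0.210%), although single positions there had methylated calls. Hemicastrated replicate 3 (0.689%) and sham replicate 1 (0.340%) at Zfp180 did not round to 0 and were not counted among the 10. That split thus rests on rounding. At C7 the 3 low mice lay 23.2 to 24.2 points from 0%, and the highest mouse 8.67 points from 100%. Steps drawn instead from the data, at the lowest mouse, the highest mouse and their midpoint, lay closer to the C7 levels: with the midpoint at 57.2%, every mouse lay within 5.59 points of a step. By the same measure the mice lay within 3.52 points at Akap7, with a midpoint of 52.3%, within 9.58 points at Zfp180, with a midpoint of 22.7%, and within 11.9 points at Dpp7, with a midpoint of 32.5%. The lowest and the highest mouse lie on such steps by construction, and with 6 mice a ladder of 3 steps leaves few values free. The C7 distances also rest on means over both strands, and the 3 low mice there differed more by strand. At Akap7 4 of the 6 intervals held 50%, and at Dpp7 4 did. The Akap7 intervals pool both strands and both read groups, which are described below. In sham replicate 3 the pooled interval ran from 42.0% to 56.8%, while the levels of its parts ran from 32.9% to 74.7%. An interval that holds 50% there is thus an average over unlike parts.

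Positions of a fragment are read from the same molecules, so they are not separate measurements, and how even the levels were along a block differed between loci. At Zfp180 the SD over positions within a mouse was 3.34 points in hemicastrated replicate 1 and 2.07 in sham replicate 2. At C7 it was between 2.78 and 11.7 points in hemicastrated mice and between 2.87 and 5.74 in sham mice. At Akap7 it was between 5.86 and 14.9 points in hemicastrated mice and between 11.5 and 15.1 in sham mice, with single positions from 16.7% to 75.9% in hemicastrated replicate 1. The widest spread at C7 was in hemicastrated replicate 2, in which the top strand had 34.3% (18 reads, interval 16.3% to 56.3%) and the bottom strand 13.2% (45 reads, 6.26% to 26.2%).

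The strands of a CpG are counted from different reads. The median absolute difference between the strands was 1.05 points at Zfp180, 5.18 at C7, 6.80 at Dpp7 and 6.36 at Akap7, over 36, 36, 36 and 60 pairs of values. The largest was 6.84 points at Zfp180 and 30.0 at C7. At Akap7 the differences reached 29.2 points, and in sham replicate 3 the first 3 CpGs had 50.6% on the top strand (90 reads, interval 41.0% to 61.2%) and 74.7% on the bottom strand (29 reads, 57.9% to 87.8%).

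The Akap7 block and the position before it formed a pair of read groups, 3 CpGs from 25299053 to 25299138 and 7 CpGs from 25299167 to 25299274, told apart by their read numbers. The first group had 96 top-strand and 29 bottom-strand reads in hemicastrated replicate 1, and the second 24 and 27. The top strand had more reads in the first group in all 6 mice, and the bottom strand did in hemicastrated replicate 1 alone. The first CpG of the second group was lower than its neighbours in most mice. Its top strand, position 25299167, had 16.7%, 27.8% and 27.3% in hemicastrated mice and 23.8%, 37.5% and 33.3% in sham mice. The next CpG, position 25299183, had 50%, 50% and 31.8% in hemicastrated and 57.1%, 80.5% and 33.3% in sham mice. The first CpG was lower on this strand in 5 of the 6 mice, though in hemicastrated replicate 3 by about 1 read of 22, and equal in sham replicate 3. Position 25299167 was one of the 4 positions of this block that missed the limit of 40 points.

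Most edges of the blocks were set by where positions had enough reads. The lower edge at Akap7 was set by the limit of 40 points instead, since position 25299053, 1 bp below the block, had 87 to 154 reads and a range of 32.4 points. At Zfp180 the lower edge could be narrowed to 27 bp. A neighbouring stretch of 9 positions, from 24081981 to 24082116, had at least 5 reads in all libraries, and 10 of its 1218 calls were methylated (0.821%). Position 24082116, the one nearest to the block, had 20, 17 and 32 reads in hemicastrated mice with 1, 0 and 1 methylated, and 31, 27 and 7 reads in sham mice with 0 methylated in each. Position 24082116 and the first position of the block, 27 bp apart, thus differed in hemicastrated replicate 1. Whether the methylated reads of the block stem from this place in the genome was not tested, which bears on every Zfp180 level given here. Above the block, thinly read positions within 1 kb gave 86 calls, of which 12.8% were methylated, too few to place the upper edge. They had 0% of 15 calls, 60% of 5 and 8.33% of 24 in hemicastrated mice, and 6.25% of 32 in sham replicate 1, 0 calls in sham replicate 2 and 40% of 10 in sham replicate 3.

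At Dpp7 the nearest measured position below the block, 2645 bp away inside the gene, was methylated at 90.9% to 100% in every mouse. The nearest ones above lay 8898 bp away, where 79 positions from 25365314 to 25365822, around the end of Uap1l1, were at 0.482% to 0.697% in all 6 mice. Uap1l1 encodes a relative of an enzyme that makes UDP-N-acetylglucosamine. The level of the Dpp7 block lay between these flanks. No flank position with 10 or more reads in all 6 libraries varied by more than 9.09 points between mice. Thinly read positions gave 23 calls within 1 kb below the block and 11 within 1 kb above it, too few to follow single mice. From 1 to 10 kb above, 70.8% of 946 thin calls were methylated (57.8% to 86.2% by mouse), so the upper side was not low throughout.

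At Akap7 the 26 positions from 25296819 to 25296896, inside the gene close to its listed start, were at 0.373% to 0.950% in every mouse and varied by at most 4.88 points. These positions were low in all mice, including those with 49.2% to 73.9% in the block. Thinly read positions 1 to 10 kb below the Akap7 block had 20.7% of 397 calls methylated. Above that block no position reached 10 reads in all libraries. Thin positions there gave 15 calls within 1 kb, too few to follow single mice, and 89.9% of 158 calls methylated from 1 to 10 kb. At C7 no other position reached 10 reads. Pooled thin positions gave 22.5% of 40 calls within 1 kb below the block and 30.8% of 39 calls within 1 kb above it, too few to follow single mice. From 1 to 10 kb above, inside the gene, 77.7% of 188 calls were methylated.

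**Figure D3:**
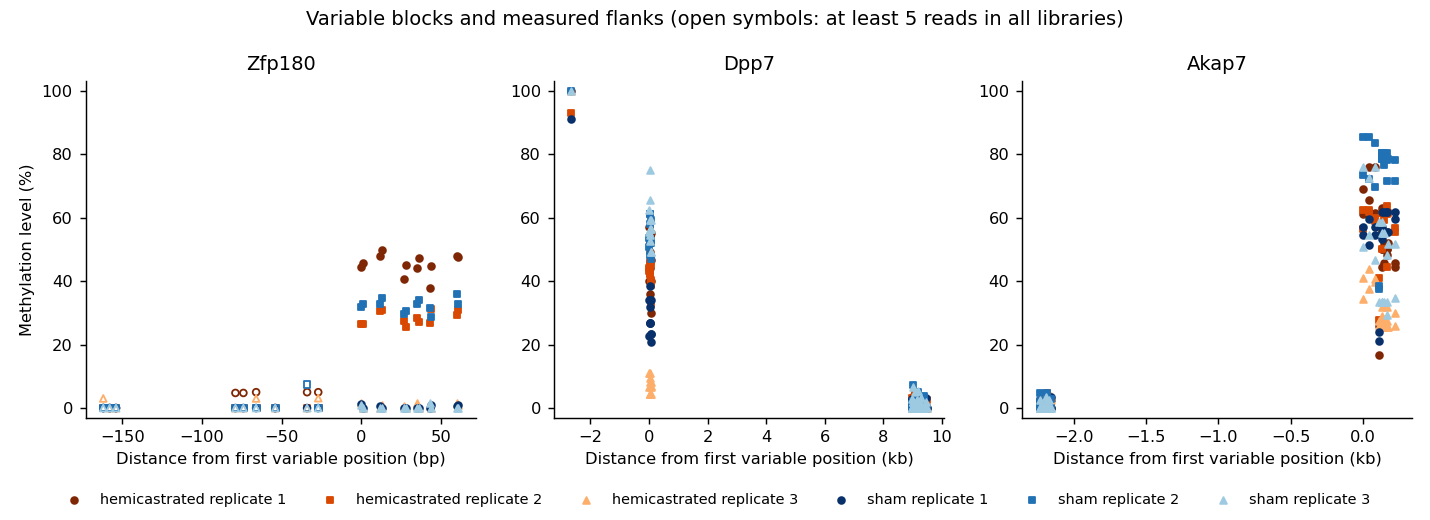
Methylation level in percent against distance from the first variable position, in bp at Zfp180 and in kb at Dpp7 and Akap7, with each mouse in its own colour. Open symbols are the Zfp180 positions with at least 5 reads in every library. The blocks spread, as does position 25299053, 1 bp below the Akap7 block, with a range of 32.4 points. The other plotted flanks of all mice lie near 0% or, 2645 bp below the Dpp7 block, above 90%. More thinly read flank positions are not plotted.

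Read depth, which the choice of loci used only through its minimum, moved with the level at Zfp180. Reads of a block were summed over both strands, and at Akap7 over both read groups. The sums were divided by the mean depth per position of each library, which was 58.8 to 71.6 reads. They compare mice within a block and are not a depth per position. Per position, the tiles of the blocks averaged 2.77 times the library mean at Zfp180, 0.846 at Dpp7, 0.743 at C7 and 0.684 at Akap7. Summed reads at the Zfp180 block came to 9.77, 6.97 and 3.46 times the mean per position in hemicastrated mice and 4.02, 5.54 and 3.54 times in sham mice. The mice with methylated reads were those with the most reads. Methylated reads came to 4.42, 1.98 and 0.0239 times the mean in hemicastrated and 0.0137, 1.79 and 0.00743 times in sham mice. Unmethylated reads varied less, at 5.35, 4.99 and 3.44 times in hemicastrated and 4.01, 3.75 and 3.53 times in sham mice. The neighbouring unmethylated stretch did not follow this order, with 18, 18 and 33 reads at position 24081981 in hemicastrated and 32, 26 and 7 in sham mice. The part of read depth in the Zfp180 level was not tested.

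At C7 the summed reads came to 1.29, 0.977 and 1.83 times the library mean per position in hemicastrated mice. In sham mice they came to 1.01, 1.75 and 2.11 times, again highest in the mouse with the highest level. Unmethylated reads nonetheless dropped to 0.183 times the mean in sham replicate 3, against 0.684 to 0.981 times in the other 5 mice. At Akap7 the mouse with the highest level, sham replicate 2, also had the most summed reads (4.25 times the mean per position, the others 2.71 to 3.21). Its unmethylated reads were the fewest, at 1.11 times. At Dpp7 the summed reads came to 1.48 to 1.93 times the mean per position and did not follow the level: hemicastrated replicate 3, the lowest mouse, had 1.82 times.

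Among all 71235 tiles of 500 bp with at least 3 positions, the depth ratio of the highest to the lowest library had a median of 1.49. It was 2.82 at the Zfp180 tile, above 95.01% of tiles, 2.20 at the C7 tile, above 86.2%, 1.63 at the Akap7 tile and 1.30 at the Dpp7 tile. Depth here is reads per position over the library's mean. The mouse with the highest level also had the greatest such depth in 15.9% of all tiles. Among the 485 tiles with a range of 40 points or more it did in 135 (27.8%). Of the 4 tiles described here, 3 had that property. Its part in the levels was not tested.

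**Figure D4:**
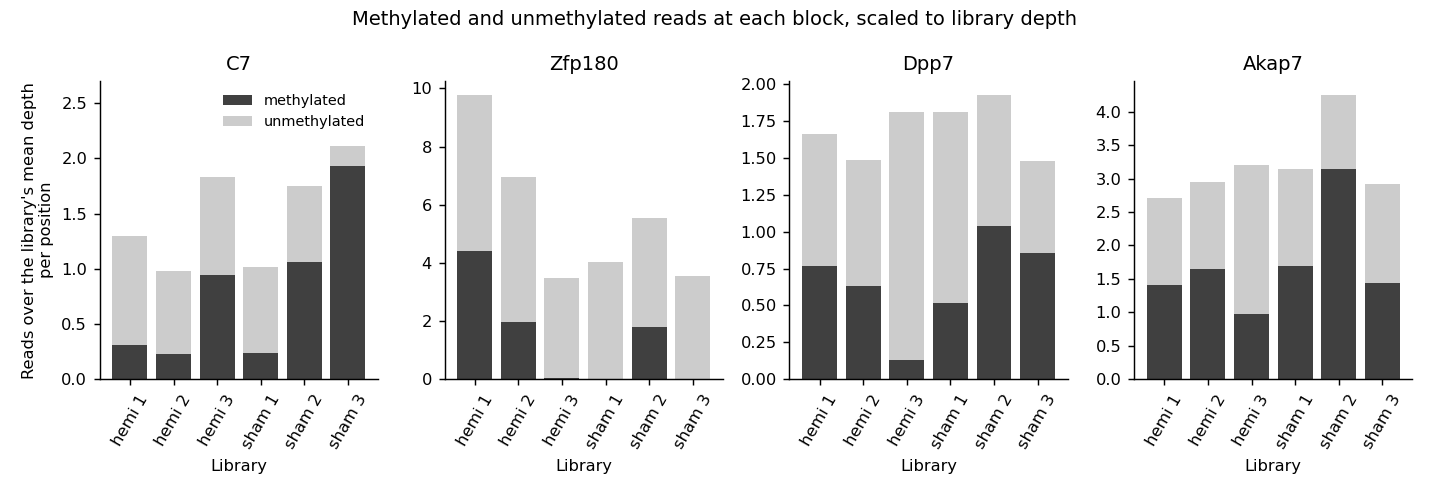
Methylated (dark) and unmethylated (light) reads at each block in each mouse, hemicastrated on the left. Reads are summed over both strands, and at Akap7 over both read groups, then divided by the library's mean depth per position. At Zfp180 the unmethylated part runs from 3.44 to 5.35 while the methylated part runs from 0.00743 to 4.42; at Dpp7 the total stays between 1.48 and 1.93.

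Hemicastrated and sham mice overlapped at every block. The C7 block averaged 33.2% ± 16.0 in hemicastrated and 58.4% ± 34.1 in sham mice, a difference of -25.2 points with a standard error of 21.8 (SD, n = 3 each; exact two-sided permutation test, p = 0.4). The Zfp180 block averaged 24.8% ± 22.5 in hemicastrated and 10.95% ± 18.5 in sham mice (SD, n = 3 each; exact permutation p = 0.5). The Dpp7 block averaged 31.9% ± 21.5 in hemicastrated and 46.8% ± 15.9 in sham mice (exact permutation p = 0.5). The Akap7 block averaged 46.1% ± 13.6 in hemicastrated and 59.0% ± 13.1 in sham mice (exact permutation p = 0.5). With 3 against 3 this test cannot give a p below 0.1. Across the genome edgeR's quasi-likelihood test called 0 of 71149 tiles (0%) at an adjusted p of 0.05, limma called 0, and 3039 tiles had an unadjusted p below 0.05. The tiles of the 4 blocks had edgeR adjusted p of 1 and unadjusted p of 0.109 (C7), 0.1997 (Zfp180), 0.246 (Dpp7) and 0.189 (Akap7). The loci were chosen for their spread over all mice, which enters the SDs and these tests, so a p above the threshold here does not show that the groups were alike.

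The position of the loci among all tiles shows what the choice selected. A range of 40 points or more was found in 485 of 71235 tiles (0.681%), against a median range of 4.20 points. The C7 tile had 68.2 points, with 22 tiles above it, the Dpp7 tile 50.8 points, with 121 above, the Zfp180 tile 45.1 points, with 273 above, and the Akap7 tile 42.8 points, with 354 above.

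**Figure D5:**
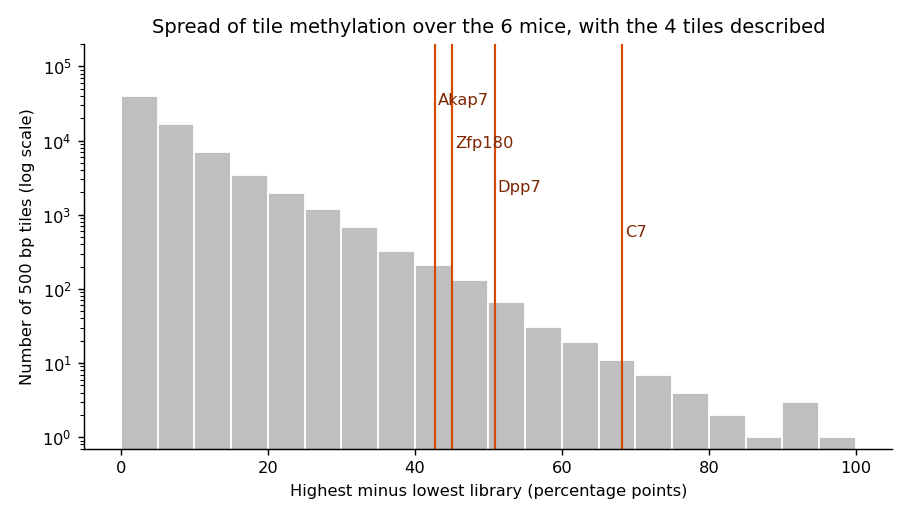
Number of 500 bp tiles (log scale) by the difference between the highest and the lowest of the 6 libraries, in percentage points, with the 4 tiles described marked. C7 lies at 68.2 points, Dpp7 at 50.8, Zfp180 at 45.1 and Akap7 at 42.8, all in the tail of the distribution.

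Relatives of the 4 genes were looked up at their CpG-richer gene ends (1000 bp to each side of whichever boundary had more listed positions). Of 13 measured genes of the complement pathway, C7 was the only 1 with a range of 40 points or more. The next was Cd59b, which encodes a surface inhibitor of the membrane attack complex, with 27.5 points. Zfp180 was the 1 of 10 measured zinc finger genes of chromosome 7, Dpp7 the 1 of 8 prolyl peptidase genes and Akap7 the 1 of 11 anchoring protein genes. Since these 4 were chosen for their range, their counts are not a result about the families. Over all gene ends 57 of 16624 (0.343%) had such a range and the median range was 0.7505 points. Levels below 5% were found at 8 of 10, 6 of 8 and 10 of 11 gene ends of the zinc finger, peptidase and anchoring lists and at 3 of 13 of the complement list, beside 77.9% of all gene ends.

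Tiles elsewhere with the most similar levels over the 6 mice were sought by the mean absolute difference from each block. For Akap7 the closest tile of 71228 lay in Hydin, which encodes a protein of the ciliary and sperm tail axoneme, with a mean difference of 2.69 points and levels of 47.3%, 53.7% and 38.2% in hemicastrated and 53.8%, 72.1% and 49.2% in sham mice. Tiles in Myo15b (3.60 points) and in Cux2 (3.92 points over 36 positions), a homeobox gene, followed. For Dpp7 the closest were tiles 7327 bp from Neurl3 (4.27 points), in 1700028P14Rik (6.02 points) and in Etv6, an ETS factor gene (6.28 points). For C7 they lay in Cyp4f39, a cytochrome P450 gene (8.68 points), 23085 bp from Dars (9.42 points) and 19656 bp from Gm19847 (9.92 points). For Zfp180 they lay 52896 bp from Gm30288 (7.70 points), 17763 bp from Gm36434 (8.01 points) and in Myocd, a coactivator gene of smooth muscle (8.42 points). Over 6 mice and this many tiles a close match is a description of the levels only.

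The tissue label was checked at gene ends that somatic cells methylate and germ cells do not. Dazl was at 8.18%, Tex101 at 13.5%, Taf7l at 17.3%, Sycp3 at 17.4% and Mael at 20.8% over the 6 libraries, while Ddx4 and Sycp1 were not measured. Hemicastrated replicate 1 was the highest library at 4 of these 5 genes, with 32.1% at Mael, against 16.5% to 19.9% in the other mice, and 28.2% at Sycp3, against 10.6% to 18.7%. At Tex101 it had 7.26%, the others 4.75% to 20.8%. Hemicastrated replicate 1 was also the highest mouse at the Zfp180 block, and the part of the cell mixture in the block levels was not tested. Of 4 listed imprinted genes whose starts are unmethylated in male germ cells, 1 was measured, Plagl1. It was at 8.62%, again highest in hemicastrated replicate 1, at 11.9%, with 10.9% in sham replicate 1. The libraries held 64504011 to 78630942 calls each, and the levels of single positions correlated between any pair of libraries with Pearson's r of 0.986 to 0.989 across positions, which are not independent replicates.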

How the data were processed

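The authors deposited, for each of the 6 libraries, methylated and unmethylated read counts per cytosine position, as raw counts, and a methylation level in percent, per the file headers; levels here were recomputed from the counts. Per the submitters' processing notes, Bismark, TopHat2 2.0.11 and GRCm38 were used, with no role stated. The sources used here give no trimming, duplicate removal or Bismark version. The files name no strand, so neighbouring positions were taken as the strands of 1 CpG; 55.2% of listed positions had such a neighbour. Levels of blocks are unweighted means over positions. Read intervals use the largest read count per strand of each fragment, since its positions share reads. Groups were compared with edgeR 4.0.16 and limma 3.58.1 in R 4.3.3 over all tiles of 500 bp with at least 3 positions, on methylated and unmethylated counts with a term for each library, with Benjamini-Hochberg adjustment, and by exact permutation tests (SciPy 1.17.1). The edgeR model was also run on simulated data. Their spread between libraries was a fixed setting not taken from these blocks, so that run does not bear on loci that vary this widely. Nothing states whether replicates differ in more than the animal, and p values set the group difference against the spread between these samples. The members and lists were chosen with earlier results of these data known. Named genes were the 4 members, all genes overlapping the windows that a result touches, relatives with a range of 40 points or more, and the 3 most similar tiles per block; Cd59b was named after its value was seen. Gene boundaries, starts and the sequence came from RefSeq tables of GRCm38.p6; no genome sequence was used here.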

Additional observations from a re-analysis of the deposited data

How the results depend on the processing

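None of the group differences at the 4 blocks changed sign under minimums of 5 or 20 reads, summed counts, merged strands, other range limits or the loss of any 1 library. Leaving out 1 library at a time, they ran from -42.9 to -8.79 points at C7, from 3.60 to 25.9 at Zfp180, from -24.1 to -2.59 at Dpp7 and from -17.8 to -5.16 at Akap7, and the ranges over mice from 37.6 to 68.2 points at C7, 32.1 to 45.1 at Zfp180, 29.4 to 50.8 at Dpp7 and 24.7 to 43.3 at Akap7. edgeR adjusted p of the 4 tiles stayed at 0.965 or above in these fits, and 0 tiles were called in each. Unadjusted edgeR p depended on single mice. It ran from 0.00562 to 0.389 at C7 and from 0.00987 to 0.558 at Zfp180. At Dpp7 it ran from 0.0918 to 0.904 and at Akap7 from 0.0999 to 0.656. With at least 1 position per tile edgeR called 3 tiles, and the 4 tiles of the blocks had adjusted p of 1. The C7 block held 6 positions with at least 20 reads and the Akap7 block 6, because fewer positions passed. The Akap7 block held 12 positions with no gap allowed, and the Dpp7 block 1 with a limit of 60 points, at which Zfp180 and Akap7 had no block. With no gap allowed the Zfp180 block held 8 positions. The numbers of the libraries are not stated to pair mice, so the main fits took no pairs. Same-numbered libraries correlated at 0.0225 to 0.0273 in their deviations and differently numbered ones at -0.0161 to -0.00818. Each library thus correlated best with its own number, and these small values cannot decide whether the numbers pair libraries. With the replicate block the adjusted p of the 4 tiles was 0.999997 and 0 tiles were called. Unadjusted edgeR p was then 0.0108 (C7), 0.0849 (Zfp180), 0.239 (Dpp7) and 0.0593 (Akap7). Depth limits Akap7 and C7 most, with 15 and 17 reads at their thinnest positions.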
